A study of Mus musculus with 15 samples.

Results

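The genes described here encode the classical axon guidance ligands and receptors: semaphorins of classes 3 to 7, plexins, neuropilins, netrins, Dcc and the Unc5 receptors, Slits and Robo receptors, ephrins and Eph receptors. They were taken by gene symbol from the platform annotation, using probe sets assigned to 1 gene. The symbol rule itself uses no measured value, although it was chosen with earlier results of these data known. The rule found 67 genes on 129 probe sets, out of 17097 genes on 28898 probe sets that had 1 listed gene. Of these, 33 encode ligands and 33 encode receptors, and the remaining one, Plxna4os1, is an antisense RNA whose symbol matches the plexin pattern.

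RNA of 15 mouse samples was measured on 1-colour Affymetrix expression arrays, 1 array per sample and 3 arrays in each of 5 groups. Myc secondary tumours arose after sphere cells cultured from Myc primary tumours were transplanted orthotopically. Myc primary tumours arose after cerebellar cells of Cdkn2c-/-, Trp53-/-, Atoh1-GFP mice, infected with Myc, were placed in the cerebral cortex of nude mice. Shh tumours were medulloblastomas that formed spontaneously in Cdkn2c-/-; Trp53Fl/Fl; Nestin-Cre mice, in which Cre is driven from a promoter active in neural progenitors. GFP-positive and GFP-negative cells were sorted at postnatal day 6 from cerebella of Cdkn2c-/-, Trp53-/-, Atoh1-GFP mice, so every group lacked Cdkn2c and had Trp53 deleted or floxed with Cre, and no group was wild type. Atoh1 is the transcription factor that specifies cerebellar granule neuron progenitors. The sample labels of the 6 sorted samples call them spontaneous tumour, against the study's design text; the design text was followed here, and which of the labels is right was not tested. Tumour cells were dissociated and purified on a Percoll gradient. The labels give no age for tumour-bearing mice and do not tie arrays to animals, so p-values here reflect how far the samples of a group differ, which may be technical.

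Axon guidance cues are secreted or membrane-bound proteins that attract or repel growing axons and migrating neurons. Semaphorins act through plexins, with neuropilins as co-receptors for the secreted class 3 members; netrins act through Dcc and the Unc5 receptors, Slits through Robo receptors, and ephrins through Eph receptor tyrosine kinases. In the postnatal cerebellum these systems guide granule neuron progenitors and newborn granule neurons, and Shh-type medulloblastoma arises from granule neuron progenitors.

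Values are log2 signals, so a difference of 1 is a 2-fold change, and levels of different genes cannot be set against each other because probe sets differ in brightness. Signals under 4.77, below which 95% of the readings of the array's 23 nonspecific control probe sets lay, were read as not above background; where a group mean lay there, the difference printed is that of the measured signals and the fold is given as a lower bound. Array medians over all probe sets lay between 4.64 and 4.89, and pairs of arrays within a group correlated, over genes, at 0.962 to 0.995. Cdkn2c was below background in all 5 groups, which does not check the deletion because its probe set was not placed relative to the deleted part. Myc read 10.1, 9.12 and 8.88 in Myc secondary tumours, 8.41, 5.21 and 9.0 in Myc primary tumours, 8.19, 9.13 and 8.15 in Shh tumours, 7.37, 7.39 and 6.68 in GFP-positive cells and 8.70, 8.55 and 8.56 in GFP-negative cells. The Myc primary mean of 7.54 thus lay below the Shh mean of 8.49, against what the label would give, and Myc primary 2 was lowest of the 15 arrays; whether the Myc probe set reads the introduced Myc was not tested. Without Myc primary 2, 5 members rose and 11 fell in Myc primary relative to Shh tumours, 6 rose and 18 fell relative to GFP-positive cells and 7 rose and 17 fell relative to GFP-negative cells, in place of the counts below. Of 7 measured granule neuron progenitor markers, 5 were above background in Myc secondary tumours, 3 in Myc primary tumours, 7 in Shh tumours, 7 in GFP-positive cells and 5 in GFP-negative cells. Atoh1 averaged 5.31 in Myc secondary tumours, 4.62 in Myc primary tumours, 9.74 in Shh tumours, 8.92 in GFP-positive cells and 4.09 in GFP-negative cells, so the reporter sort and the Atoh1 signal ran the same way.

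Most of the guidance genes were detected in some group, and for those that differed the peak lay mainly in the sorted cells. Of the 67 members, 29 were above background in every group and 25 in some groups. The 13 that were below background in every group were Epha6, Epha10, Ephb4, Ntn3, Ntn5, Plxna4, Plxna4os1, Plxnc1, Robo3, Sema3b, Sema3c, Sema3f and Unc5d. In a test for any difference among the 5 groups (limma's moderated F test, adjusted p below 0.05), 44 members (65.7%) passed, against 47.8% of all genes. Among these 44, the highest group mean lay in Myc secondary tumours for 2 members (4.55%, against 20.5% of all genes that passed), in Myc primary tumours for 3 (6.82%, against 17.9%), in Shh tumours for 3 (6.82%, against 14.1%), in GFP-positive cells for 18 (40.9%, against 18.1%) and in GFP-negative cells for 18 (40.9%, against 29.4%). The lowest mean lay in Myc secondary tumours for 15 of the 44 (34.1%, against 22.9% of all genes that passed). The 2 members that peaked in Myc secondary tumours were Nrp2 and Unc5a, and the 3 that peaked in Myc primary tumours were Sema3g, Plxna1 and Efna2. Dcc, Unc5b, Unc5c, Ntn1, Ntn4, Robo2 and Plxnb2 were among those that peaked in GFP-positive cells.

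**Figure D1:**
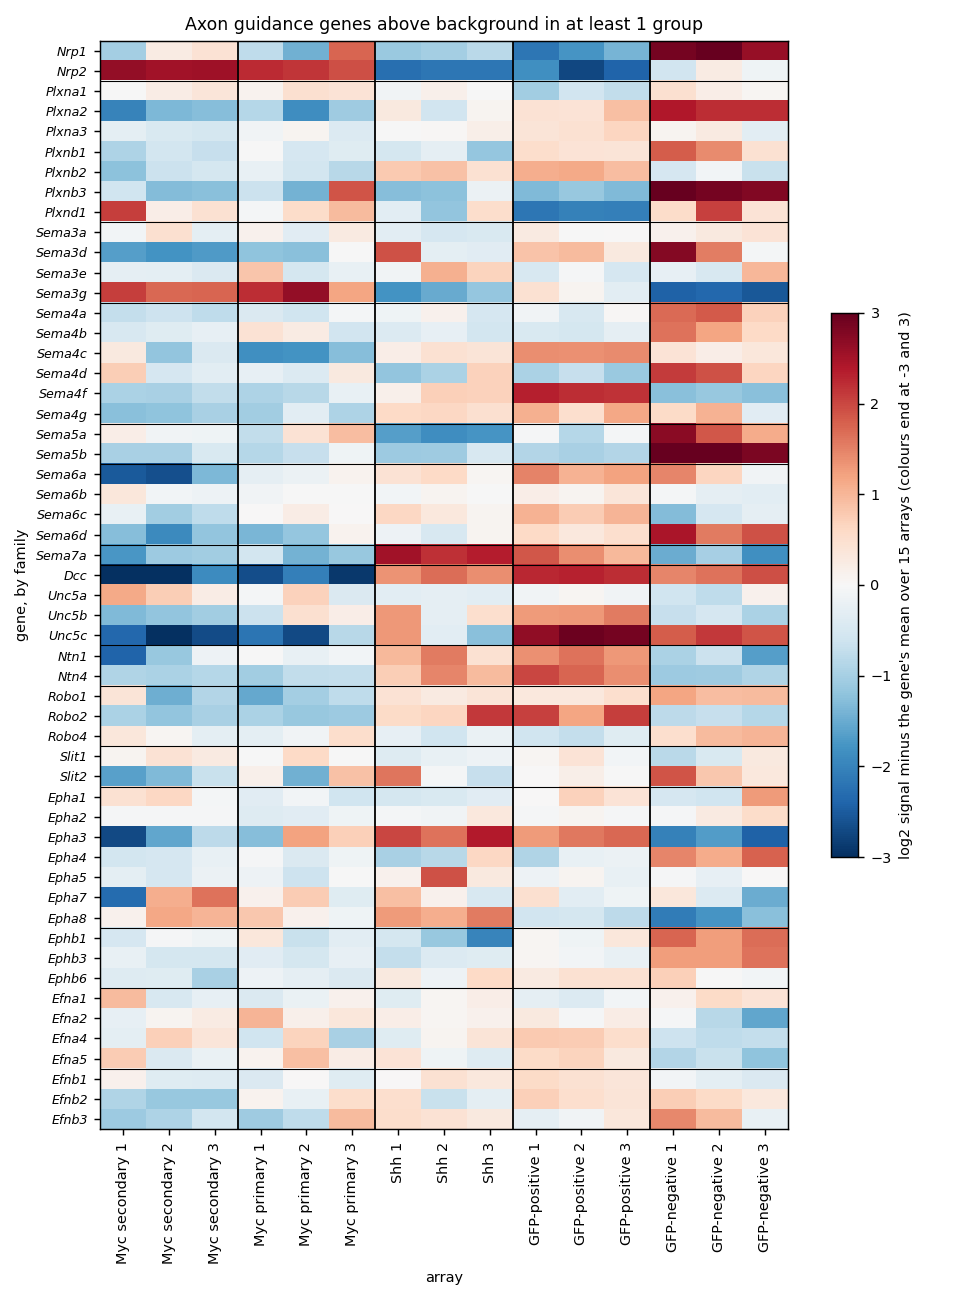
Log2 signal of the 54 members above background in at least 1 group, minus each gene's mean over the 15 arrays (colour, ending at -3 and 3), with genes in rows by family and arrays in columns by group. Nrp2 and Sema3g stand out as high in all 6 Myc tumour arrays, while Dcc, Sema7a, Ntn4 and Robo2 are low there and high in Shh tumours and GFP-positive cells.

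The comparison of Myc tumours with Shh tumours asked which guidance genes separate these models of medulloblastoma. Nrp2 and its ligand gene Sema3g were over 10-fold higher in Myc primary tumours, and the netrin receptor Dcc and the membrane-anchored semaphorin Sema7a were over 10-fold lower. Of the 67 members, 3 rose and 12 fell in Myc primary tumours relative to Shh tumours, when 8.46% of all genes rose and 7.33% fell, 15.8% together (limma, Benjamini-Hochberg adjusted p below 0.05 over all genes). All 15 members differed at least 2-fold. They are 22.4% of the members tested, when 9.14% of all genes tested were called with at least a 2-fold change. The 12 that fell are 17.9% of the members. The median difference over the members was -0.09, against 0.08 over all genes, and the median absolute difference was 0.45, against 0.27. In Myc secondary tumours 5 members rose and 20 fell relative to the same Shh arrays, when 10.5% of all genes rose and 12.3% fell, 22.8% together. These 2 comparisons share the Shh arrays. Markers of some other cells moved with them, and other lists were less even. Microglia and macrophage markers were above background for 8, 7 and 7 of 10 genes in Myc secondary, Myc primary and Shh tumours. In the same order the counts were 3, 6 and 5 of 8 for astroglia and 3, 8 and 6 of 9 for the oligodendrocyte lineage. Endothelial and mural markers were above background for 7 of 11 genes in Myc secondary (array means 5.75 to 5.88) and 7 of 11 in Myc primary tumours (5.47 to 6.95), against 5 of 11 in Shh tumours (4.76 to 5.24), with Pecam1, Cdh5 and Tek below background in all 3 groups. Granule neuron progenitor markers averaged 5.72 to 6.66 per array in Myc secondary and 6.0 to 6.35 in Myc primary tumours, against 9.96 to 10.11 in Shh tumours. This list was uneven. In Myc secondary, Myc primary and Shh tumours Neurod1 averaged 12.02, 11.84 and 12.35, and Pax6 7.22, 8.91 and 10.89. In the same order Barhl1 averaged 4.42, 4.23 and 9.68, Gli1 4.10, 3.57 and 9.34, and Mycn 4.85, 4.54 and 10.70. The part of these cells in the differences was not tested, and in bulk samples fewer cells of a type and less RNA per cell cannot be told apart.

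Nrp2 is a transmembrane co-receptor of class 3 semaphorins and of the growth factor VEGF-C. It read 9.48, 9.36 and 9.39 in the Myc secondary tumours and 9.08, 8.99 and 8.78 in the Myc primary tumours, against 4.59, 4.67 and 4.68 in the Shh tumours. All 6 Myc arrays lay far above the 3 Shh arrays, which were below background. The log2 difference was 4.76 ± 0.22 (standard error of the fit) for Myc secondary against Shh tumours (adjusted p = 3.9e-08, limma) and 4.30 ± 0.22 for Myc primary against Shh tumours (adjusted p = 1.2e-07). Because the Shh mean was below background, these are at least 25-fold and at least 18.1-fold. A second, dimmer Nrp2 probe set rose by 2.42 and 2.44 in the same comparisons.

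Sema3g, a secreted class 3 semaphorin that binds neuropilin 2, read 8.26, 7.91 and 7.95 in the Myc secondary tumours and 8.41, 8.83 and 7.39 in the Myc primary tumours, against 4.41, 4.68 and 5.04 in the Shh tumours. The Myc arrays and the Shh arrays did not overlap. The difference was 3.33 ± 0.31 for Myc secondary tumours (adjusted p = 1.5e-05, at least 9.66-fold) and 3.50 ± 0.31 for Myc primary tumours (adjusted p = 1.5e-05, at least 10.9-fold). Sema5a, a transmembrane semaphorin with thrombospondin repeats, read 5.42, 5.12 and 5.10 in the Myc secondary tumours and 4.48, 5.65 and 6.14 in the Myc primary tumours, against 3.56, 3.35 and 3.45 in the Shh tumours. Every Myc array was above every Shh array, and the Shh arrays were below background. Sema5a rose by 1.76 ± 0.42 in Myc secondary (adjusted p = 0.0094) and by 1.97 ± 0.42 in Myc primary tumours (adjusted p = 0.0072), at least 1.36-fold and at least 1.57-fold. A dimmer Sema5a probe set differed by 0.94 and 1.65 in the same comparisons and did not pass. The remaining Sema5a probe sets were below background, so the calls rest on the brightest probe set alone.

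Nrp1, the other neuropilin, did not pass the test against Shh tumours. It read 5.26, 6.52 and 6.73 in the Myc secondary and 5.53, 4.84 and 8.04 in the Myc primary tumours, against 5.18, 5.27 and 5.47 in the Shh tumours. The Myc primary arrays spread over more than 3 log2 units, and the difference of 0.83 had a 95% interval from -0.58 to 2.23. Of the 7 class 3 semaphorins, 6 did not pass the test in Myc primary tumours, and Sema3b, Sema3c and Sema3f were below background in every group. The A-type plexins through which class 3 signals are passed were split, since Plxna2 fell while Plxna1 (difference 0.32, 95% interval -0.04 to 0.68), Plxna3 (-0.22, interval -0.57 to 0.14) and Plxna4 (below background) did not pass the test in Myc primary tumours. Sema3e, the ligand of Plxnd1, gave an uneven reading. Its brightest probe set differed by -0.53 and did not pass, while 2 dimmer probe sets of the gene differed by -1.85 and -2.62 and did (adjusted p = 0.0017 and 0.00055 in the fit of single probe sets).

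Among the genes that fell, Dcc, the receptor through which netrin attracts axons, read 6.06, 6.26 and 7.64 in the Myc secondary and 6.88, 7.47 and 6.63 in the Myc primary tumours, against 10.88, 11.20 and 10.93 in the Shh tumours. The Myc arrays were all well above background and over 3 log2 units below the Shh arrays. Dcc fell by 4.35 ± 0.34 in Myc secondary tumours (20.4-fold, adjusted p = 3.5e-06) and by 4.01 ± 0.34 in Myc primary tumours (16.1-fold, adjusted p = 1e-05). A second Dcc probe set fell by 5.18 and 3.96. Sema7a, which is tethered to the membrane by a lipid anchor and binds Plxnc1 and integrins, read 7.09, 7.75 and 7.80 in the Myc secondary and 8.29, 7.42 and 7.69 in the Myc primary tumours, against 11.35, 11.03 and 11.20 in the Shh tumours. The gap between the Myc and the Shh arrays was wider than the range within any of the 3 groups. Sema7a fell by 3.64 ± 0.30 (12.5-fold, adjusted p = 5.1e-06) in Myc secondary and by 3.39 ± 0.30 (10.5-fold, adjusted p = 1.4e-05) in Myc primary tumours. Its receptor gene Plxnc1 was below background in all groups.

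Ntn4, a laminin-related secreted netrin, read 3.84, 3.80 and 3.90 in the Myc secondary and 3.70, 4.01 and 4.02 in the Myc primary tumours, against 5.48, 6.20 and 5.69 in the Shh tumours. It was thus above background on every Shh array and on no Myc array. The difference was -1.94 ± 0.19 for Myc secondary tumours (adjusted p = 2.1e-05) and -1.88 ± 0.19 for Myc primary tumours (adjusted p = 4.5e-05), at least 2.03-fold lower in both. Unc5c, the repulsive netrin receptor whose loss causes the rostral cerebellar malformation mouse, read 4.77, 3.86 and 4.45 in the Myc secondary and 4.95, 4.44 and 6.31 in the Myc primary tumours, against 8.43, 6.83 and 5.89 in the Shh tumours. One Myc primary array lay inside the Shh range, and the Shh arrays themselves spread from 5.89 to 8.43. Unc5c fell by 2.69 ± 0.55 in Myc secondary (at least 4.87-fold, adjusted p = 0.0037) and by 1.82 ± 0.55 in Myc primary tumours (adjusted p = 0.042). In the fit of single probe sets, a dimmer Unc5c probe set passed in Myc secondary tumours (-1.67, adjusted p = 0.033). It did not pass in Myc primary tumours (-1.49, adjusted p = 0.072). Ntn1, the founding netrin and a ligand of Dcc, read 6.13, 7.39 and 8.38 in the Myc secondary and 8.52, 8.30 and 8.44 in the Myc primary tumours, against 9.49, 10.09 and 8.98 in the Shh tumours. All Myc arrays lay below the Shh arrays, and the Myc secondary arrays were spread widely. Ntn1 fell by 2.22 ± 0.46 in Myc secondary tumours (adjusted p = 0.0036), whereas its difference of -1.10 ± 0.46 in Myc primary tumours did not pass (adjusted p = 0.13). Unc5b, another netrin receptor, fell by 1.69 ± 0.34 in Myc secondary tumours (at least 2.03-fold) and differed by -0.49 in Myc primary tumours without passing. Unc5a went the other way, with 0.99 ± 0.30 in Myc secondary tumours (adjusted p = 0.03), reading 5.52, 5.11 and 4.60 against 4.06, 4.12 and 4.06 in the Shh tumours, which were below background, at least 1.24-fold.

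Of the 4 Robo receptors for Slits, Robo2 fell in both kinds of Myc tumour and Robo1 in Myc primary tumours. Robo2 read 3.68, 3.44 and 3.66 in the Myc secondary and 3.68, 3.50 and 3.53 in the Myc primary tumours, against 5.20, 5.27 and 6.76 in the Shh tumours. As with Ntn4, every Myc array was below background and every Shh array above it. Robo2 fell by 2.15 ± 0.35 in Myc secondary (adjusted p = 0.00077) and 2.17 ± 0.35 in Myc primary tumours (adjusted p = 0.001), at least 1.96-fold in both. Robo1 fell by 1.46 ± 0.35 in Myc primary tumours (6.52 against 7.98, adjusted p = 0.014), and its Myc secondary arrays overlapped the Shh arrays. The ligands Slit1 and Slit2 did not pass in either comparison. Slit2 read 4.10, 4.40 and 5.06 in the Myc secondary and 5.88, 4.27 and 6.61 in the Myc primary tumours, against 7.33, 5.67 and 5.02 in the Shh tumours, so all 3 groups overlapped.

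Of the 6 transmembrane semaphorins of class 4, 2 fell in Myc secondary and 3 in Myc primary tumours. Sema4c, a ligand of plexin-B2, read 7.44, 5.95 and 6.72 in the Myc secondary and 5.31, 5.34 and 5.87 in the Myc primary tumours, against 7.35, 7.60 and 7.54 in the Shh tumours. The Myc primary arrays were all below the Shh arrays, and 1 Myc secondary array lay within the Shh range. Sema4c fell by 1.99 ± 0.28 in Myc primary tumours (3.96-fold, adjusted p = 0.00052) and did not pass in Myc secondary tumours. Sema4g fell by 1.71 ± 0.30 in Myc secondary and 1.32 ± 0.30 in Myc primary tumours, and Sema4f by 1.40 ± 0.19 and 1.18 ± 0.19. Plxnb2, which granule cell progenitors need for normal proliferation and migration in the mouse, fell by 1.5 ± 0.22 (8.91 against 10.42, adjusted p = 0.00036) in Myc secondary and by 1.23 ± 0.22 (9.18 against 10.42, adjusted p = 0.0021) in Myc primary tumours. Plxna2, with which Sema6a acts in granule cell migration, fell by 1.47 ± 0.29 in Myc secondary and 1.19 ± 0.29 in Myc primary tumours. A dimmer Plxna2 probe set, above background in these groups, differed by -0.43 and -0.89 and did not pass. Other dimmer ones passed in both comparisons, at -1.36 and -2.07 in Myc secondary and -1.51 and -1.99 in Myc primary tumours. Sema6a, Sema6c and Sema6d fell in Myc secondary tumours, by 2.54 ± 0.38, 1.01 ± 0.26 and 1.26 ± 0.35. No class 6 member passed in Myc primary tumours on its brightest probe set. A dimmer Sema6d probe set, below background in both groups, rose by 0.73 in Myc primary tumours (adjusted p = 0.049 in the fit of single probe sets). Sema6a read 4.81, 4.69 and 5.99 in the Myc secondary tumours, against 7.78, 7.94 and 7.39 in the Shh tumours, without overlap, but its other 2 probe sets differed by 0.27 and -0.05 and did not pass, so the fall rests on 1 probe set.

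Of the 20 ephrins and Eph receptors, 1 passed the test in Myc primary and 5 in Myc secondary tumours. In Myc primary tumours 1 of 13 Eph receptors fell and none of the 7 ephrins passed the test; the receptor was Epha8, an ephrin-A receptor, which fell by 1.05 ± 0.30 (6.14 against 7.19, adjusted p = 0.034). Epha3, which binds ephrin-A5, read 3.40, 4.55 and 5.31 in the Myc secondary and 4.82, 7.30 and 6.81 in the Myc primary tumours, against 8.10, 7.73 and 8.48 in the Shh tumours. Neither Myc group overlapped the Shh arrays, but the arrays of both Myc groups were far apart and overlapped each other. Epha3 fell by 3.68 ± 0.57 in Myc secondary tumours (at least 10.1-fold, adjusted p = 0.00056), while -1.79 ± 0.57 in Myc primary tumours missed the threshold (adjusted p = 0.051). Dimmer probe sets did pass in Myc primary tumours: 1 of Epha3 (-1.44, adjusted p = 0.00062 in the fit of single probe sets), 1 of Epha5 (-1.10, 0.015) and 2 of Efnb1 (-1.60, 0.015 and -0.65, 0.027). Ephb1, a receptor of ephrin-B ligands, rose by 0.99 ± 0.33 in Myc secondary tumours, at 7.42, 7.89 and 7.79 against 7.40, 6.79 and 5.94 in the Shh tumours (adjusted p = 0.049), and Efnb2, Ephb6 and Epha5 fell by 0.91 ± 0.26, 0.82 ± 0.24 and 1.10 ± 0.36, Epha5 at least 1.11-fold because its Myc secondary mean was below background. Efna5, the ephrin-A5 gene, averaged 7.10 in Myc secondary, 7.48 in Myc primary and 7.03 in Shh tumours and did not pass.

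**Figure D2:**
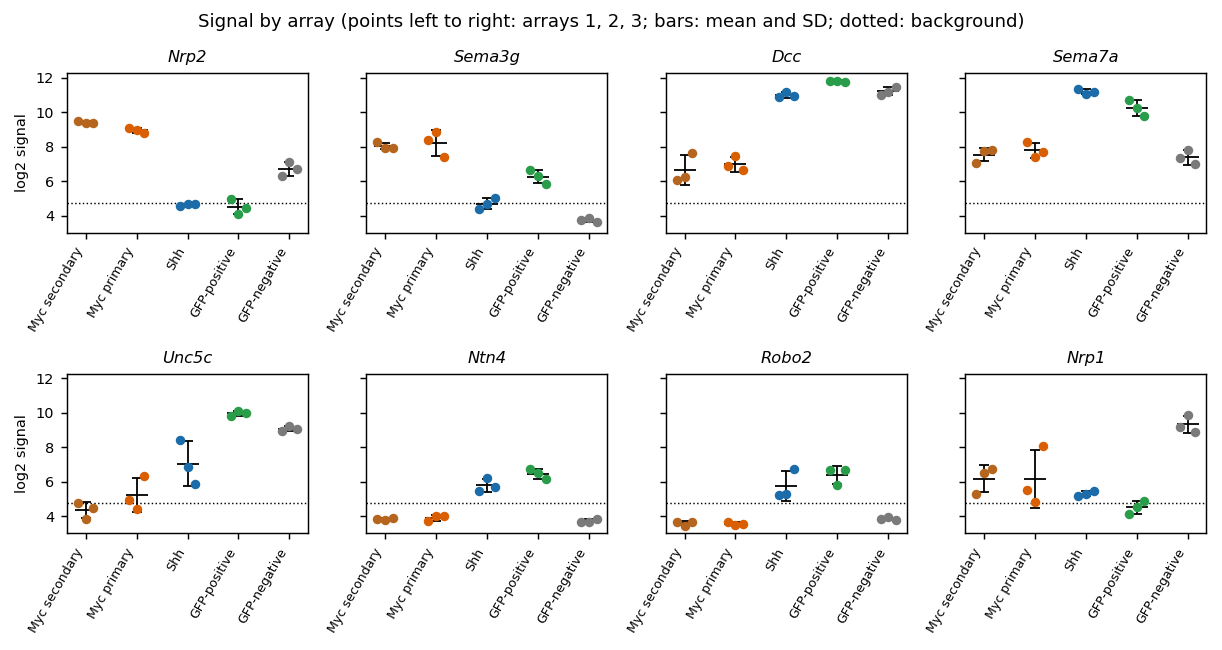
Log2 signal of 8 members on each of the 15 arrays, by group, with mean and SD bars and the background level of 4.77 dotted. Nrp2 and Sema3g sit at 7.39 to 9.48 in the Myc tumours and at 4.41 to 5.04 in the Shh tumours, while Dcc, Sema7a, Ntn4 and Robo2 run the other way and Nrp1 spreads from 4.84 to 8.04 in Myc primary tumours.

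**Figure D3:**
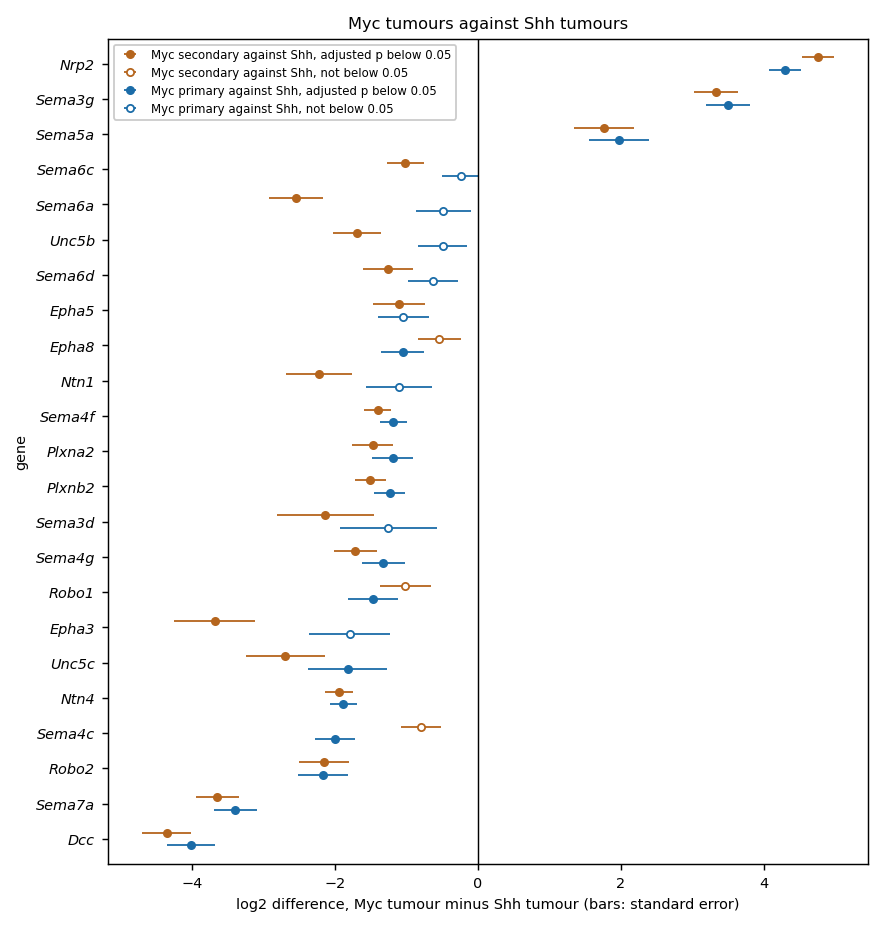
Log2 difference from Shh tumours, with standard error, for Myc secondary and Myc primary tumours; filled points passed adjusted p below 0.05. Nrp2, Sema3g and Sema5a lie to the right in both comparisons, and Dcc lies furthest left in both.

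The calls in the comparisons of Myc secondary and Myc primary tumours with Shh tumours overlapped, as comparisons with shared arrays may. All 3 members that rose in Myc primary tumours were among the 5 that rose in Myc secondary tumours, and 9 of the 12 that fell were among the 20 that fell there: Dcc, Ntn4, Plxna2, Plxnb2, Robo2, Sema4f, Sema4g, Sema7a and Unc5c. With any single array left out, 11 of the 15 calls in Myc primary tumours held. Robo1 missed the threshold without Myc primary 1 (difference -1.25, adjusted p = 0.056) and Plxna2 without Myc primary 2 (-0.89, 0.054) or Shh 1 (-1.01, 0.065), while Unc5c missed it without Myc primary 1 or 2 or Shh 1 or 2, and Epha8 without any one array but Myc primary 1, at adjusted p-values of up to 0.15 and 0.12. Of the 25 calls in Myc secondary tumours 16 held; Epha5, Sema3d, Sema6c, Sema6d, Efnb2, Ephb1, Ephb6, Plxna3 and Unc5a missed the threshold without at least 2 of the 6 arrays in turn, at adjusted p-values between 0.063 and 0.19 at their weakest. Arrays centred on their median gene gave 8 members that rose and 15 that fell, in place of 5 and 20, and averaging each gene's probe sets left Sema6c at -0.16, Sema6d at -0.20 and Sema3d at -0.97 without a call.

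The promoters of Nrp2, Sema3g and Sema7a are shown because these genes, with Dcc, had the largest differences between Myc primary and Shh tumours. Each sequence holds the 300 bases from 250 before to 50 after the start that the RefSeq promoter table gives in build GRCm38.p6 (for Sema7a this start lies inside the full annotated span of the gene), read along the gene's strand, with CAGCTG, an E-box of basic helix-loop-helix factors such as Atoh1, in capitals. Nrp2 starts within chr1:62703067-62703366, Sema3g within chr14:31217623-31217922 and Sema7a within chr9:57939862-57940161, all on the plus strand. The first 2 rose in Myc tumours and the last fell.
Nrp2: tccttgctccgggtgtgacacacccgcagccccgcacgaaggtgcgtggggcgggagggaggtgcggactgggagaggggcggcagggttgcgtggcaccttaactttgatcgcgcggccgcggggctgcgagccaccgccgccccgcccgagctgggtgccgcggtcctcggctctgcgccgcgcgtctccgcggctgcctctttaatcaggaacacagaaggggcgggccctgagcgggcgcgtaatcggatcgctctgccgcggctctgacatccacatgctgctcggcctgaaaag
Sema3g: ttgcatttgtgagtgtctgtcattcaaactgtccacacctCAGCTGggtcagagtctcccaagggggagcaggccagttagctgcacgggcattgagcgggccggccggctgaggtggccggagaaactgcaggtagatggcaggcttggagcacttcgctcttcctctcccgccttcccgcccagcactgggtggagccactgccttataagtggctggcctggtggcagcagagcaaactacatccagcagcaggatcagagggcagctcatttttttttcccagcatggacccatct
Sema7a: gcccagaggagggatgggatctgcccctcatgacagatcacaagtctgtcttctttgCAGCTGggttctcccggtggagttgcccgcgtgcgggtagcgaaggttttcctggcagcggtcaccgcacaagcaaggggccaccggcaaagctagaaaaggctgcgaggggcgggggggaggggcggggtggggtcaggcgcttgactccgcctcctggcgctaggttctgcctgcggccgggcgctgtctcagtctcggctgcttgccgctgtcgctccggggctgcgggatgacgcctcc
Sema3g held 1 CAGCTG, 210 bases before the start, and Sema7a held 1, 193 bases before the start, whereas the Nrp2 window held none. None of the 3 held CACGTG, the letters bound by Myc with Max, or GACCACCCA, the Gli motif, on either strand. Of the 56 members with a promoter in the table, 21.4% held CAGCTG, against 18.3% of all 27025 genes with a promoter, 8.93% held CACGTG, against 8.09%, and 0 held GACCACCCA, against 0.289%. CAGCTG and CACGTG are palindromes and were counted once, and none of the 3 motifs contains another. A match is a description of letters and not a bound site.

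Some genes that work beside the members also differed, when 22.8% of all genes were called in Myc secondary and 15.8% in Myc primary tumours. Of 21 co-receptors and other guidance cues, 0 rose and 12 fell in Myc secondary tumours, and 2 rose and 10 fell in Myc primary tumours, relative to Shh tumours, with median differences of -1.18 and -0.90, against 0.07 and 0.08 over all genes. Draxin, a secreted repellent that binds Dcc, fell by 4.89 ± 0.36 in Myc primary tumours (5.51 against 10.39, adjusted p = 3.6e-06). Boc, a surface receptor for Shh in both axon guidance and granule progenitor growth, differed by -3.43 ± 0.26, Lrig3 by -2.79 ± 0.21 and Flrt3, a ligand of Unc5 receptors, by -1.90 ± 0.21, and all 3 passed. Of 41 measured genes of 51 listed for signalling behind the receptors, 2 rose and 17 fell in Myc secondary and 0 rose and 7 fell in Myc primary tumours, where 34 were not called. Among these, Mical1, an actin-oxidising enzyme downstream of plexins, fell by 2.18 ± 0.35 in Myc primary tumours.

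Between Myc secondary and Myc primary tumours 1 member passed the test. Of the 67 members 1 fell and 0 rose, when 0.719% of all genes changed, and the median difference was -0.15 over members and -0.03 over all genes. The gene was Sema6a, a transmembrane semaphorin that acts through A-type plexins. It read 4.81, 4.69 and 5.99 in the Myc secondary tumours, against 7.06, 7.15 and 7.44 in the Myc primary tumours. The arrays did not overlap, and the difference was -2.05 ± 0.38 (4.15-fold, adjusted p = 0.036, limma). The other 2 probe sets of Sema6a did not follow, with differences of 0.17 and -0.07, and the call was lost without Myc secondary 1 (difference -1.88, adjusted p = 0.071), without Myc secondary 2 (-1.82, 0.13), without Myc primary 2 (-2.09, 0.069) and without Myc primary 3 (-1.94, 0.11). Without Myc primary 1, 3 members passed, and with arrays centred on their median gene 1 rose and 1 fell. Its receptors Plxna2 and Plxna4 differed by -0.28 (95% interval -0.91 to 0.36) and 0.22 (-0.12 to 0.56). Efnb2, a transmembrane ephrin, read 7.11, 6.87 and 6.87 in Myc secondary and 8.12, 7.79 and 8.55 in Myc primary tumours, without overlap, but its difference of -1.21 missed the threshold (adjusted p = 0.062). None of the 21 co-receptors and cues and none of the 41 signalling genes passed.

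Relative to GFP-positive cells, which were sorted by the Atoh1 reporter, Nrp2 and Sema3g rose in Myc primary tumours, and 3 of 5 Dcc and Unc5 receptors and 2 of 4 Robo receptors fell. Of the members, 6 rose and 19 fell, when 14.5% of all genes rose and 10.3% fell, 24.8% together. Netrin receptors lay at the far end. Unc5c read 4.95, 4.44 and 6.31 in Myc primary tumours, against 9.80, 10.08 and 10 in GFP-positive cells. Dcc read 6.88, 7.47 and 6.63 in Myc primary tumours, against 11.80, 11.84 and 11.75 in GFP-positive cells. Both genes were separated by more than 3 log2 units between the nearest arrays. Dcc fell by 4.81 ± 0.34 (28.0-fold, adjusted p = 1.4e-06) and Unc5c by 4.73 ± 0.55 (26.5-fold, adjusted p = 6e-05). The difference of -1.53 ± 0.46 of their ligand gene Ntn1 passed (adjusted p = 0.026) but missed the threshold with any one of the 6 arrays left out, at 0.053 to 0.083.

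Sema4c read 5.31, 5.34 and 5.87 in Myc primary tumours, against 8.54, 8.52 and 8.57 in GFP-positive cells, and Sema4f read 5.13, 5.23 and 5.84, against 8.39, 8.29 and 8.24. The GFP-positive arrays were tight for these semaphorins (SD 0.03 and 0.08) and the Myc primary arrays less so (0.32 and 0.38). For both genes the groups lay far apart. Sema4c fell by 3.03 ± 0.28 (5.51 against 8.54) and Sema4f by 2.90 ± 0.19 (5.40 against 8.31) relative to GFP-positive cells. Sema7a fell by 2.45 ± 0.30, Robo2 by at least 3.10-fold and Ntn4 by at least 3.22-fold. Ntn4 read 6.74, 6.49 and 6.13 in GFP-positive cells, and Robo2 read 6.69, 5.81 and 6.70, so for both genes all 3 sorted arrays were above background while all Myc primary arrays, given above, were below it. Among the genes that rose, Nrp2 read 5.0, 4.12 and 4.45 in GFP-positive cells and was at least 18.1-fold higher in Myc primary tumours (difference 4.43 ± 0.22, adjusted p = 1.1e-07). Plxnd1, a receptor of Sema3e known from blood vessels, read 6.52, 7.14 and 7.53 in Myc primary tumours, against 4.42, 4.56 and 4.54 in GFP-positive cells. The sorted arrays were all below background and the tumour arrays all above it, and Plxnd1 rose by 2.56 ± 0.56 (at least 4.91-fold, adjusted p = 0.0045). Sema3g, at 6.65, 6.29 and 5.87 in GFP-positive cells, rose by 1.94 ± 0.31. Plxna1 read 6.09, 6.45 and 6.38 in Myc primary tumours, against 4.93, 5.41 and 5.24 in GFP-positive cells, and rose by 1.12 ± 0.16. Of the 25 calls 18 held with any single array left out. Besides Ntn1, the calls of Epha8, Plxna3, Sema3b, Sema6a, Sema6c and Sema6d did not, at adjusted p-values of up to 0.19, 0.053, 0.16, 0.075, 0.097 and 0.076. Plxna3 missed the threshold without Myc primary 3 or GFP-positive 3, and the others without any of 4 or 5 arrays. Dimmer Sema6a probe sets fell by 1.65 and 2.34 and passed (adjusted p = 0.00012 and 4.8e-05 in the fit of single probe sets). Endothelial and mural markers moved with Plxnd1: 7 of 11 were above background in Myc primary tumours, with array means of 5.47 to 6.95, and 4 of 11 in GFP-positive cells, with array means of 4.0 to 4.39. Pecam1, Cdh5 and Tek were below background in both groups. Their part in the Plxnd1 difference was not tested. GABAergic and Purkinje markers ran the other way, above background for 1 of 7 genes in Myc primary tumours (4.37 to 4.57) and 4 of 7 in GFP-positive cells (6.42 to 6.63). Gad1 averaged 3.53 and 9.28, while Gad2, Calb1 and Pcp2 were below background in both groups. Granule neuron progenitor markers also ran the other way, for 3 of 7 genes (6.0 to 6.35) and 7 of 7 (10.06 to 10.25). Within that list Neurod1 averaged 11.84 and 13.27. Microglia and macrophage markers were above background for 7 of 10 genes (5.43 to 5.85) and 0 of 10 (3.76 to 4.10). Counts were 8 of 9 (4.58 to 8.60) and 4 of 9 (4.64 to 4.72) for the oligodendrocyte lineage. For astroglia they were 6 of 8 (4.92 to 7.22) and 3 of 8 (5.06 to 5.23). The part of these cells in the differences was not tested either. Of the 21 co-receptors and other cues 1 rose and 9 fell, among them the L1-family adhesion molecules Nrcam, by 3.63 ± 0.30, and Chl1, with -3.53 ± 0.25. Of the 41 signalling genes 0 rose and 13 fell, among them Dpysl3, a collapsin response mediator, by 3.12 ± 0.42 (7.90 against 11.02).

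Relative to GFP-negative cells, the cerebellar cells without reporter signal, 8 members rose and 21 fell in Myc primary tumours, when 19.1% of all genes rose and 14.7% fell, 33.8% together. Sema3g read 8.41, 8.83 and 7.39 in Myc primary tumours, against 3.76, 3.85 and 3.65 in GFP-negative cells. It was at least 10.9-fold higher (difference 4.46 ± 0.31, adjusted p = 8.3e-07), with all GFP-negative arrays below background. Nrp2 rose by 2.25 ± 0.22 (4.75-fold, adjusted p = 8.8e-06), and GFP-negative cells read 6.28, 7.10 and 6.72, above background. The dimmer Nrp2 probe set, at 7.19 and 6.22, differed by 0.97 and did not pass (adjusted p = 0.06 in the fit of single probe sets). Epha8 read 6.68, 6.00 and 5.74 in Myc primary tumours, against 3.78, 4.11 and 4.62 in GFP-negative cells, and Efna5 read 7.18, 7.98 and 7.29, against 6.18, 6.41 and 5.86. The groups did not overlap for either gene. Epha3 and Epha8, both ephrin-A receptors, rose by 2.26 ± 0.57 and 1.97 ± 0.30 (at least 2.92-fold and at least 2.59-fold), and the ligand genes Efna5 and Efna2 by 1.33 ± 0.31 and 1.32 ± 0.32. A dimmer Efna2 probe set, above background in both groups, differed by 0.22 and did not pass (adjusted p = 0.48 in the fit of single probe sets). Among the genes that fell, Dcc differed by -4.22 ± 0.34, Unc5c by -3.84 ± 0.55, Sema5b by -3.69 ± 0.23 (at least 9.89-fold), Plxna2 by -3.55 ± 0.29, Plxnb3 by -3.32 ± 0.67 and Nrp1 by -3.17 ± 0.65. Sema5b read 4.08, 4.26 and 4.82 in Myc primary tumours, against 8.35, 8.11 and 7.76 in GFP-negative cells, and Plxna2 read 6.16, 5.14 and 5.94 against 9.42, 9.22 and 9.23. Neither gene overlapped between the groups. Plxnb3 read 4.81, 4.04 and 7.35 against 9.59, 8.34 and 8.24 in GFP-negative cells, and Nrp1 read 5.53, 4.84 and 8.04 against 9.16, 9.87 and 8.90; for both genes the third Myc primary array came nearest to the GFP-negative arrays. Markers of other cells fell with these genes: array means were 5.43 to 5.85 in Myc primary tumours and 9.15 to 10.53 in GFP-negative cells for microglia and macrophages (7 and 10 of 10 genes above background), 4.92 to 7.22 and 9.05 to 10.11 for astroglia (6 and 8 of 8), 4.58 to 8.60 and 8.01 to 9.30 for the oligodendrocyte lineage (8 and 9 of 9), and 5.47 to 6.95 and 6.56 to 7.86 for endothelial and mural cells (7 and 11 of 11). The part of these cells in the falls was not tested. Of the 6 class 4 semaphorins 1 rose and 5 fell, and both class 5 semaphorins fell. Of the 21 co-receptors and other cues 5 rose and 9 fell, Chl1 by 6.14 ± 0.25 (3.63 against 9.77) and Rgma, a ligand of the Dcc relative neogenin, by 3.69 ± 0.32, and of the 41 signalling genes 1 rose and 12 fell. The calls of Sema3d, Sema4d, Sema4f, Sema6c, Epha2 and Robo4 were lost with any of 3 or 4 single arrays left out, at adjusted p-values of up to 0.091, 0.078, 0.16, 0.14, 0.057 and 0.089.

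Fewer members passed the test between Shh tumours and GFP-positive cells. Of the 67 members 2 rose and 6 fell, when 4.63% of all genes rose and 2.92% fell, 7.56% together. Epha8 read 7.16, 6.96 and 7.44 in Shh tumours, against 5.31, 5.35 and 5.10 in GFP-positive cells, and rose by 1.94 ± 0.30 (3.83-fold, adjusted p = 0.002). Plxna1, a plexin for class 3 and class 6 semaphorins, rose by 0.80 ± 0.16. Sema4f read 6.23, 6.78 and 6.75 in Shh tumours, against 8.39, 8.29 and 8.24 in GFP-positive cells. Both Epha8 and Sema4f were separated without overlap, in opposite directions. Sema4f fell by 1.72 ± 0.19 (adjusted p = 0.00018), Unc5c by 2.91 ± 0.55 (adjusted p = 0.0066) and Sema3g by 1.56 ± 0.31 (at least 2.83-fold, adjusted p = 0.0085), with the Sema3g mean of Shh tumours below background. Lrig3 rose by 2.29 ± 0.21 and Chl1 fell by 2.63 ± 0.25 among the 21 co-receptors and cues, of which 3 rose and 2 fell, and of the 41 signalling genes 1 rose and 5 fell. Ephb1, Plxnb1 and Sema4c fell by 1.29 ± 0.33, 1.09 ± 0.30 and 1.05 ± 0.28; with single arrays left out these 3 reached adjusted p-values of 0.13, 0.17 and 0.12, each without any of 5 or 6 arrays. Plxna1 reached 0.057 without GFP-positive 1, and the count of 8 fell to 4 without GFP-positive 1 and to 5 without GFP-positive 2. A missed threshold does not show equality: Robo2, for instance, averaged 5.74 in Shh tumours and 6.40 in GFP-positive cells. In the fit of single probe sets, dimmer probe sets of some uncalled members passed. Those of Plxna2 (-2.10, adjusted p = 0.0032), Unc5b (-1.70, 0.02) and Sema6d (-1.43, 0.0029 and -1.61, 0.00098) were lower in Shh tumours. Those of Epha3 (0.87, 0.021) and Epha5 (1.06, 0.027) were higher. Sema3e and Sema6a are treated below. The count depended on the processing: arrays centred on their median gene gave 1 that rose and 13 that fell in place of 2 and 6, and averaging each gene's probe sets gave 4 and 12, the 6 arrays fitted alone 5 and 14. Markers of other cells differed here too. GABAergic and Purkinje markers were above background for 1 of 7 genes in Shh tumours (array means 4.45 to 4.62) and 4 of 7 in GFP-positive cells (6.42 to 6.63). Gad2, Calb1 and Pcp2 were below background in both. Microglia and macrophage markers ran the other way, with 7 of 10 genes (5.32 to 5.77) and 0 of 10 (3.76 to 4.10). The part of these cells in the differences was not tested.

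Of the 7 comparisons, the sort by the Atoh1 reporter gave the highest count of called members. In GFP-positive relative to GFP-negative cells, 19 members rose and 16 fell, 52.2% of the 67, when 12.6% of all genes rose and 13.8% fell, 26.3% together. At least a 2-fold change was called for 31 members (46.3%), against 15.9% of all genes, and the median absolute difference was 0.89 over members, against 0.30 over all genes. Ligands and receptors were split differently: 12 of 33 ligand genes rose and 6 fell, while 7 of 33 receptor genes rose and 10 fell, a contrast that was not tested.

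Genes higher in GFP-positive cells came from each ligand system. Epha3 read 7.39, 7.69 and 7.82 in GFP-positive cells, against 4.07, 4.42 and 3.67 in GFP-negative cells. Sema4f read 8.39, 8.29 and 8.24, against 4.82, 4.93 and 4.82 in GFP-negative cells. Sema7a read 10.71, 10.24 and 9.80, against 7.34, 7.83 and 6.99 in GFP-negative cells. In each of the 3 genes the lowest GFP-positive array was more than 1 log2 unit above the highest GFP-negative array. Epha3 rose by 3.58 ± 0.57 (at least 7.29-fold, adjusted p = 0.00047), Sema4f by 3.45 ± 0.19 (11.0-fold, adjusted p = 1.1e-07) and Sema7a by 2.86 ± 0.30 (7.27-fold, adjusted p = 1.5e-05). Ntn4 read 6.74, 6.49 and 6.13 in GFP-positive cells, against 3.65, 3.67 and 3.85 in GFP-negative cells, and Robo2 read 6.69, 5.81 and 6.70, against 3.85, 3.93 and 3.77. Both were below background on every GFP-negative array and rose at least 3.22-fold and at least 3.10-fold. Sema3g read 6.65, 6.29 and 5.87 in GFP-positive cells, against 3.76, 3.85 and 3.65 in GFP-negative cells, without overlap. Ntn1 rose by 2.51 ± 0.46, Sema3g by 2.52 ± 0.31 (at least 2.83-fold) and Unc5b by 2.09 ± 0.34 (at least 3.70-fold), whereas Dcc averaged 11.80 and 11.21 and did not pass.

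Of the 4 ephrin-A ligand genes, 3 rose in GFP-positive cells: Efna5 by 1.42 ± 0.31, Efna4 by 1.39 ± 0.36 and Efna2 by 0.97 ± 0.32. A dimmer Efna2 probe set, above background in both groups, differed by 0.28 and did not pass (adjusted p = 0.37 in the fit of single probe sets). Efna1 differed by -0.62 (95% interval -1.29 to 0.04) and did not pass. Plxnb2 rose by 1.47 ± 0.22 and its ligand gene Sema4c by 1.08 ± 0.28. Plxnc1 rose by 1.0 ± 0.19, although both its means (4.65 and 3.65) were below background. Epha8 rose by 1.08 ± 0.30, and with single arrays left out 31 of the 35 calls held, while those of Epha8, Efna2, Plxna3 and Sema6b missed the threshold without any of 4 or 5 arrays, at adjusted p-values of up to 0.072, 0.14, 0.15 and 0.15.

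Genes lower in GFP-positive cells included both neuropilins, both class 5 semaphorins and 4 of 9 plexins. Nrp1, the co-receptor of class 3 semaphorins and VEGF-A, read 4.12, 4.51 and 4.88 in GFP-positive cells, against 9.16, 9.87 and 8.90 in GFP-negative cells. Plxnb3, a Sema5a receptor of oligodendrocytes, read 4.13, 4.32 and 4.14, against 9.59, 8.34 and 8.24 in GFP-negative cells. Sema5b read 4.07, 3.97 and 4.07, against 8.35, 8.11 and 7.76 in GFP-negative cells. The GFP-positive means of these genes were below background, and the arrays lay more than 3 log2 units below the GFP-negative arrays; Nrp1 fell at least 23.2-fold, Plxnb3 at least 15.5-fold and Sema5b at least 9.89-fold. Plxnd1 read 4.42, 4.56 and 4.54, against 7.13, 8.64 and 6.99 in GFP-negative cells, at least 7.06-fold lower. Sema4d, a plexin-B1 ligand of oligodendrocytes and immune cells, read 4.84, 5.11 and 4.69, against 7.90, 7.72 and 6.44 in GFP-negative cells, and Sema5a read 5.20, 4.38 and 5.17, against 7.92, 7.09 and 6.33. Neither overlapped between the groups, although GFP-negative 3 was the lowest of its group for both. Sema4d fell by 2.47 ± 0.50, Sema5a by 2.20 ± 0.42, Nrp2 by 2.18 ± 0.22 (at least 3.81-fold) and Epha4, a receptor of both ephrin classes, by 1.89 ± 0.35 (at least 3.41-fold). Plxna2, Sema4a, Sema4b, Sema6d, Ephb1, Ephb3, Robo4 and Plxna1 fell by between 1.03 and 1.70. Of the 21 co-receptors and other cues 7 rose and 5 fell, Cntn2, an adhesion molecule of early granule neurons, with a rise of 4.14 ± 0.40 (8.49 against 4.35) and Rgma with -3.40 ± 0.32, and of the 41 signalling genes 9 rose and 5 fell.

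Markers of other cell types moved with this comparison. Microglia and macrophage markers were above background for 0 of 10 genes in GFP-positive cells (array means 3.76 to 4.10) and for 10 of 10 in GFP-negative cells (9.15 to 10.53). Oligodendrocyte lineage markers were above background for 4 of 9 genes (4.64 to 4.72) in GFP-positive and 9 of 9 (8.01 to 9.30) in GFP-negative cells, and astroglial markers for 3 of 8 (5.06 to 5.23) and 8 of 8 (9.05 to 10.11). Endothelial and mural markers were above background for 4 of 11 (4.0 to 4.39) in GFP-positive and 11 of 11 (6.56 to 7.86) in GFP-negative cells. Mog, Mag, Gfap, Aqp4, Pecam1, Cdh5 and Csf1r were below background in GFP-positive cells. Pdgfra, on the oligodendrocyte lineage list, went the other way, averaging 8.69 in GFP-positive and 5.0 in GFP-negative cells. GABAergic and Purkinje markers were above background for 4 of 7 genes in both, with array means of 6.42 to 6.63 in GFP-positive and 5.27 to 5.99 in GFP-negative cells, and Gad1 averaged 9.28 and 8.39, Lhx5 7.73 and 7.11, and Slc32a1 6.10 and 5.5. Gad2 and the Purkinje cell markers Calb1 and Pcp2 were below background in both. The part of these cell types in the differences was not tested. Arrays centred on their median gene gave 29 members that rose and 16 that fell in place of 19 and 16.

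**Figure D4:**
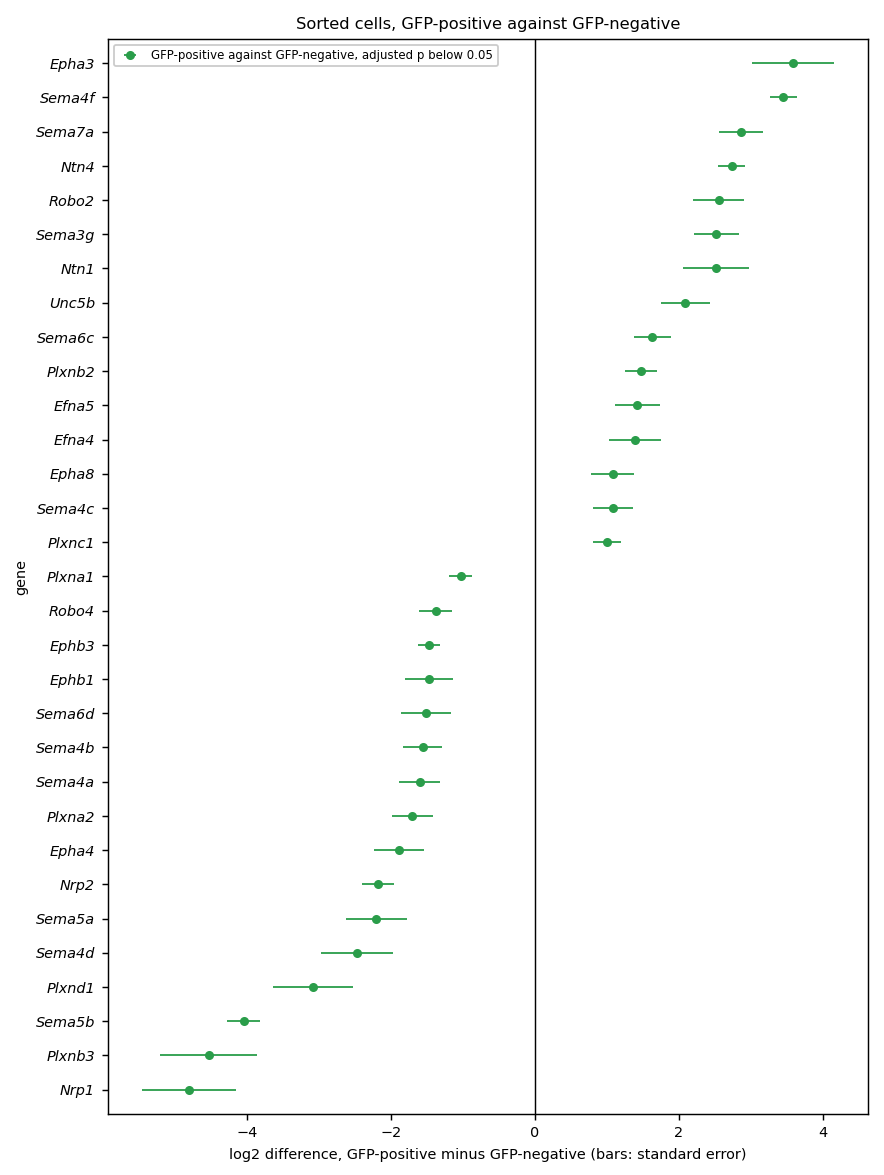
Log2 difference with standard error, GFP-positive minus GFP-negative cells, for the 31 members with adjusted p below 0.05 and at least a 2-fold change. Epha3 and Sema4f lie furthest right at 3.58 and 3.45, and Nrp1 and Plxnb3 furthest left at -4.80 and -4.53.

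Within groups, the members varied more than genes at large, with a median SD of 0.25, 0.35, 0.29, 0.16 and 0.30 in Myc secondary tumours, Myc primary tumours, Shh tumours, GFP-positive and GFP-negative cells, against 0.19, 0.20, 0.16, 0.12 and 0.29 over all genes. Single arrays stood at least 1 log2 unit away from both others of their group for some members. Myc primary 3 was high for 6 members, Nrp1, Plxnb3, Efnb3, Sema6d, Unc5c and Sema3d. Plxnb3 read 7.35 there, against 4.81 and 4.04 in Myc primary 1 and 2, and Efnb3 read 7.27, against 5.25 and 5.55. The same array carried more of some other cell types' markers. Its oligodendrocyte lineage mean was 8.60, against 5.5 and 4.58, with all 9 genes highest there. Its endothelial and mural mean was 6.95, against 5.47 and 5.49, with 10 of 11 highest there. Its fibroblast and meningeal mean was 7.03, against 4.76 and 5.23 in Myc primary 1 and 2. The astroglial mean was 7.22, against 6.92 and 4.92, and the microglia and macrophage mean of 5.61 lay between 5.85 and 5.43. The part of these cells in the readings was not tested. Shh 3 was high for 6 members, Robo2, Robo3, Sema3c, Sema4d, Epha4 and Plxnb3, and its astroglial mean was 6.08, against 5.54 and 5.42 in Shh 1 and 2, its endothelial and mural mean 5.24, against 4.77 and 4.76 with 8 of 11 genes highest there, and its oligodendrocyte mean 5.38, against 5.65 and 5.55. Myc secondary 1 was low for 5 and high for 4, with Epha7 at 4.19, against 7.58 and 8.13 in Myc secondary 2 and 3, and Plxnd1 at 8.65, against 6.78 and 7.04. With Myc primary 3, GFP-negative 3 and Myc secondary 1 left out together, 4 members rose and 16 fell in Myc primary relative to Shh tumours, and 20 rose and 20 fell in GFP-positive relative to GFP-negative cells.

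**Figure D5:**
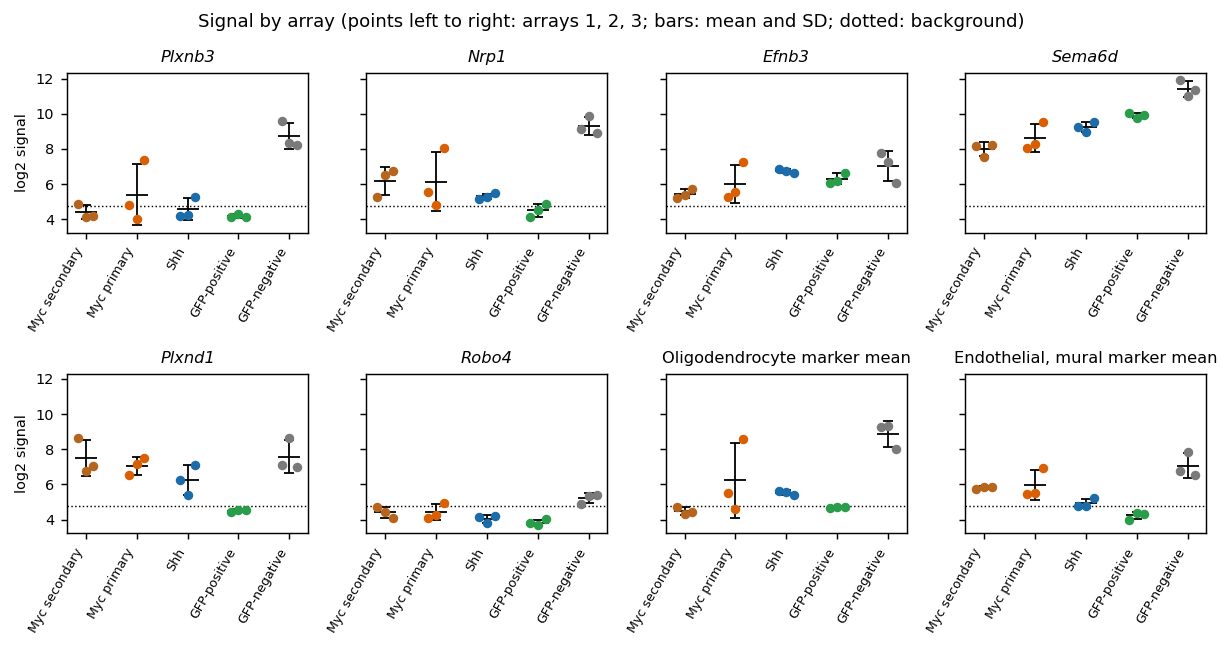
Log2 signal of 6 members and the mean of the oligodendrocyte lineage and of the endothelial and mural markers on each array, by group, with mean and SD bars and the background level dotted. In Myc primary tumours the third array is highest for the 6 members and for both marker means, and for Plxnb3, Nrp1, Efnb3, Sema6d, Plxnd1, Robo4 and both marker means the GFP-negative group mean lies above the GFP-positive one.

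On their brightest probe sets, Efna1, Efnb3, Epha7 and Sema3e had no call in any comparison while above background in every group. Dimmer Sema3e probe sets did pass, at 2.13 and 2.85 for Shh tumours against GFP-positive cells (adjusted p = 0.0012 and 0.00058) and at -1.86 and -2.90 for Myc secondary against Shh tumours, and an Efna1 probe set passed at -1.14 (adjusted p = 0.04) for GFP-positive against GFP-negative cells. In the fit of single probe sets, dimmer Sema6a probe sets passed at -1.74 and -2.36 for Shh tumours against GFP-positive cells (adjusted p = 0.00032 and 0.0002). They also passed at 1.47 and 1.62 for GFP-positive against GFP-negative cells (adjusted p = 0.00022 and 0.00059). The brightest Sema6a probe set passed in neither comparison. Epha7 had group means of 6.63, 6.67, 6.68, 6.5 and 5.97 in Myc secondary tumours, Myc primary tumours, Shh tumours, GFP-positive and GFP-negative cells, with an SD of 2.13 in Myc secondary tumours, so this steady level has wide error. Sema3a, the prototype repellent of class 3, had means of 5.21, 5.20, 4.75, 5.27 and 5.44 in the same order and did not pass in any of the 7 comparisons.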

How the data were processed

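The authors deposited log2 expression values, 1 per probe set and array, which per the submitters' processing notes were made by RMA in Partek 6.5; RMA corrects background, normalises by quantiles and compresses large differences. Its settings are not given in the sources used here. For arrays, the number of arrays limits the precision. Of 45141 probe sets, 104 controls, 15588 without a gene and 551 with several genes were left out. The brightest of a gene's probe sets by mean over all arrays stood for the gene (7180 genes had several, 38 of them members), and probe set annotation can be old; 28689 of 28898 symbols were updated through the RefSeq table. A one-way model over all 15 arrays and 17097 genes was fitted in limma 3.58.1 (R 4.3.3; residual degrees of freedom 10, prior 2.54), with Benjamini-Hochberg adjustment over all genes and a threshold of 0.05. Summaries and figures used Python 3.11.15, pandas 2.3.3, numpy 2.4.6 and matplotlib 3.10.9. The fit was checked on simulated data. A group mean below background gave a fold as a lower bound, with the background of 4.77 in its place. Up to 6 called members per direction and comparison, in order of size, were to be named with every array's value, with the partners of printed members, and 4 genes per pathway list. Members, gene lists and alternatives were chosen with earlier results of these data known. Alternatives were the mean of probe sets, single probe sets, dim genes left out (2109 genes under the 25% quantile in every group), cyclic loess, centring on the median gene, limma's trend and robust options, fits of the 6 arrays alone, and arrays left out. Trp53 was not measured by a used probe set.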

Additional observations from a re-analysis of the deposited data

How the results depend on the processing

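No called value changed sign under an alternative (with single probe sets, the brightest of the gene was read). Dimmer probe sets of some called genes had the other sign for Myc secondary against Shh tumours, such as Sema6a (0.27), Sema6c (0.29 and 0.26), Sema3d (0.20) and Sema6d (0.66 and 0.17). Of these probe sets, all but that of Sema6a were below background in both groups. Of 138 called differences of single members, 98 kept their call in all alternatives while 40 lost it in at least 1. The cause was not tested. For Myc secondary against Myc primary tumours the count of 1 called member became 0 with the mean of probe sets, 0 with the 6 arrays fitted alone, 0 with 3 arrays left out that stood apart (Myc primary 3, GFP-negative 3 and Myc secondary 1), 2 with every probe set fitted by itself and 2 with arrays centred on their median gene. For Shh tumours against GFP-positive cells the count of 8 became 16 with the mean of probe sets, 14 with centring, 19 with the 6 arrays alone and 14 with those 3 arrays left out. With single arrays left out the counts ranged from 13 to 17 for Myc primary against Shh, 17 to 25 for Myc secondary against Shh, 0 to 3 for Myc secondary against Myc primary, 24 to 29 for Myc primary against GFP-negative, 19 to 24 for Myc primary against GFP-positive, 4 to 8 for Shh against GFP-positive, 31 to 35 for GFP-positive against GFP-negative, and 40 to 46 for any group. Centring adds 0.33 to Myc secondary minus Shh, 0.50 to GFP-positive minus GFP-negative and -0.29 to Shh minus GFP-positive differences. Members near background have compressed differences on these arrays, and fits of the 6 arrays alone estimate the spread from fewer arrays. No paired analysis was possible because the labels give the groups no shared animals, litters or replicate numbers.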
